A study of Mus musculus with 6 samples.

Results

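The interferon-stimulated genes described here are 36 named genes whose transcription interferons are known to switch on, taken by gene symbol from the deposited expression table. All 36 were found among its 30071 gene rows, and all 36 passed the low-count filter that left 18177 genes for testing. The 6 RNA-seq libraries were made from MC3T3-E1, an established mouse pre-osteoblast line. In 3 libraries the cells had grown on PEEK, the implant polymer polyetheretherketone, given a nano- and microstructured surface, and had received supernatant of RAW264.7, an established mouse macrophage-like line. In the other 3 the cells had grown on the same kind of surface alone, so PEEK is common to both groups, and each group is a single cell line. The sources used here do not say what the RAW264.7 cells had been grown on. The question that the design addresses is how factors released by macrophages change pre-osteoblasts on this material.

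Interferons are secreted proteins that cells release on sensing viral nucleic acids or other danger signals. Type I interferons bind a receptor made of Ifnar1 and Ifnar2, whose kinases Tyk2 and Jak1 activate a complex with Stat2 and Irf9 that binds the interferon-stimulated response element (ISRE). Interferon gamma acts through Ifngr1 and Ifngr2 and on the gamma-activated site (GAS), and the induced genes include sensors, antiviral effectors and further transcription factors. In bone, interferon signalling is known to restrain osteoclast formation and to act on osteoblast lineage cells.

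RefSeq promoter sequences (build GRCm38.p6, 250 bases before to 50 bases after a listed transcription start) were matched by symbol for 27 of the 36 genes. The core of the ISRE was searched on both strands as the letters GAAA, any 2 bases and a further GAAA (reverse TTTC, any 2 bases and TTTC), and TTCNNNGAA, the GAS letters, reads the same on both. ISRE letters were present in 16 of the 27 genes (59.3%), against 3.99% of all 27025 genes with a listed promoter and 3.44% of all 32851 promoters of this length. GAS letters were present in 8 (29.6%), against 9.55% of all genes and 8.3% of all promoters, and 5 genes (18.5%, against 0.614% of all genes) held both. A match is a run of letters and was not tested as a binding site. Adjacent ISRE matches can share bases, and in Bst2 the GAS letters share bases with an ISRE match. The genes without a match in the promoter table were Dhx58, Zbp1, Oas2, Usp18, Mx1, Mx2, Iigp1, Parp14 and Rtp4.

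Of the 7 promoters printed, 6 are shown for the arrangement of ISRE letters in the IFIT, Isg15, IRG and GBP groups, and that of Irf1 because it had GAS letters without ISRE letters. Each runs 5′ to 3′ on the gene's strand, and capitals mark the ISRE and GAS letters. In Ifit1 (chr19:34640639-34640938, plus strand) ISRE letters begin 104 and 85 bases before the start. Ifit3 (chr19:34583279-34583578, plus strand) has them at 156 and 122 bases, and its close copy Ifit3b (chr19:34607707-34608006, plus strand) has the same letters at 188 and 154 bases. Isg15 (chr4:156200769-156201068, minus strand) holds a run of 3 overlapping ISRE matches that begin at 78, 72 and 66 bases. Igtp (chr11:58199306-58199605, plus strand) has GAS letters at 45 bases and ISRE letters at 34 bases. Gbp2 (chr3:142620413-142620712, plus strand) has a single ISRE match at 59 bases, and Irf1 (chr11:53769764-53770063, plus strand, the first of 2 listed starts) a single GAS match at 90 bases.
Ifit1: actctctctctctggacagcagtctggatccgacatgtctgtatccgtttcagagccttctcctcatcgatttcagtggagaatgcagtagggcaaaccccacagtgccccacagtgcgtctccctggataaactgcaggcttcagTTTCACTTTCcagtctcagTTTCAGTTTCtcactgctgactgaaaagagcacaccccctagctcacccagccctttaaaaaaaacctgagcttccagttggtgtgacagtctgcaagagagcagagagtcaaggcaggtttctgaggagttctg
Ifit3: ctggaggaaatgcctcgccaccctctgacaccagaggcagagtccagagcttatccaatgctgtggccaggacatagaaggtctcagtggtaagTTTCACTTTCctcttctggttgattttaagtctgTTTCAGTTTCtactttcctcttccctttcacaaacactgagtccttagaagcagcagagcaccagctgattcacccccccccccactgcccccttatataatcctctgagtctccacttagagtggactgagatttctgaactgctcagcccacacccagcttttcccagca
Ifit3b: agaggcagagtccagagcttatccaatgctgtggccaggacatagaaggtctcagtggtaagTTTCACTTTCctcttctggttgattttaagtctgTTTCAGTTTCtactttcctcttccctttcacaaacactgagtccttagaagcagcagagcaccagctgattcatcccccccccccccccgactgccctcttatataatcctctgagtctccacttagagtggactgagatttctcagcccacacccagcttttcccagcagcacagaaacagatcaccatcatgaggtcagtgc
Isg15: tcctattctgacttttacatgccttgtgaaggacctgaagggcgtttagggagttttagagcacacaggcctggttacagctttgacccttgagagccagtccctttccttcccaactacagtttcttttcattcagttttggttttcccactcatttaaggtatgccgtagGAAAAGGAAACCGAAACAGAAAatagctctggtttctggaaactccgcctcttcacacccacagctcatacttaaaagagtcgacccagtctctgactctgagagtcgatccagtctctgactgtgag
Igtp: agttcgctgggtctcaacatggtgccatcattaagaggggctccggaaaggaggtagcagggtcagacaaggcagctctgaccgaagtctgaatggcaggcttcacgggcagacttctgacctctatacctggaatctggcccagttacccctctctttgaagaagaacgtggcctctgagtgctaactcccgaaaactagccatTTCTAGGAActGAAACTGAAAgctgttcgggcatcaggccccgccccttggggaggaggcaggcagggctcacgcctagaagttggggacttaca
Gbp2: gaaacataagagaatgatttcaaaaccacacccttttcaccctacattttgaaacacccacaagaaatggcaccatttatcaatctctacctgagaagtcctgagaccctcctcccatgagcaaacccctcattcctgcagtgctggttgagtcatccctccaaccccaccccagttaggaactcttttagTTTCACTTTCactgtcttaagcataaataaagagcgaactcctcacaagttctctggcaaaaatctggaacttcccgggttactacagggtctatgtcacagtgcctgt
Irf1: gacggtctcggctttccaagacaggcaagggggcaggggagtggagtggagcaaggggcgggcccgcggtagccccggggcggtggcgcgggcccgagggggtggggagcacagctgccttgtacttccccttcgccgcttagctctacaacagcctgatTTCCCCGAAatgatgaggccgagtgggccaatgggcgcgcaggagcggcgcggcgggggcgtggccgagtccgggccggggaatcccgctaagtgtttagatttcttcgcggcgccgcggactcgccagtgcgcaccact

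**Figure D1:**
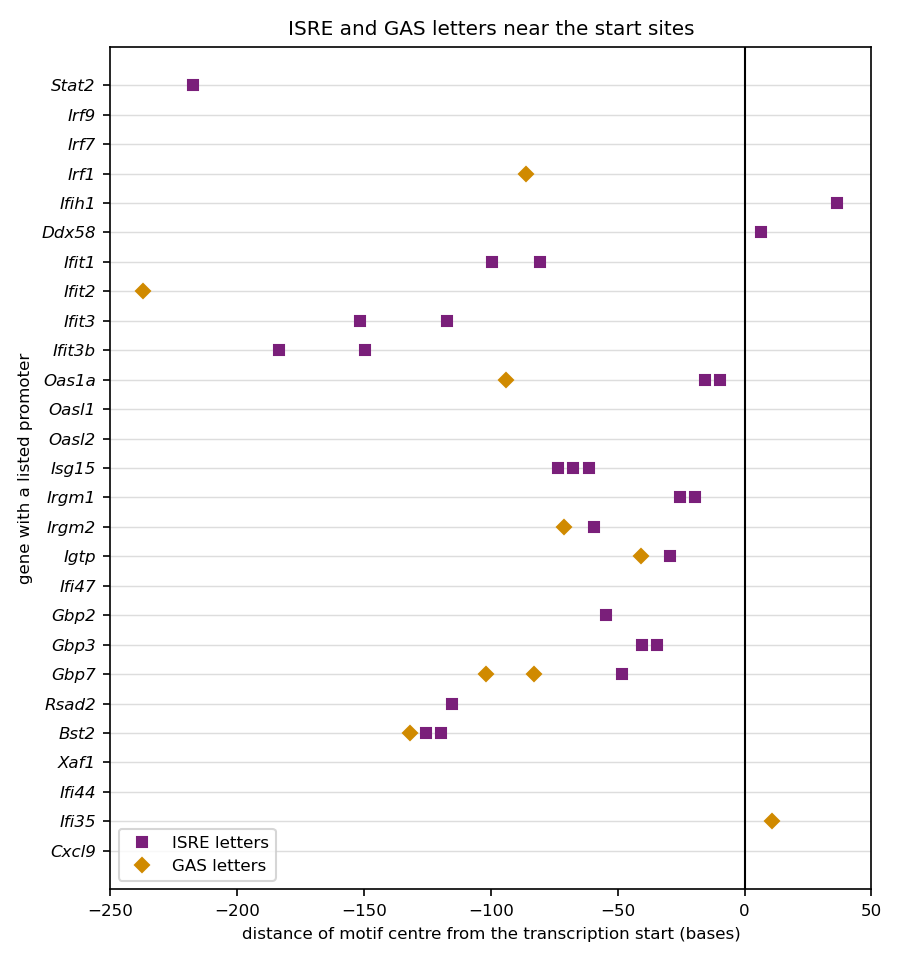
Distance in bases of the centre of each ISRE match (squares) and GAS match (diamonds) from the transcription start, for the 27 interferon-stimulated genes with a listed promoter (rows). ISRE matches were found in 16 genes, mostly within the 250 bases before the start, and GAS matches in 8.

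Library totals were 74927500 to 80861720 counts with supernatant and 76895736 to 82803173 on PEEK alone. Levels below are FPKM (fragments scaled by transcript length and library size) as deposited, given in the order of replicates 1, 2 and 3, and log2 fold changes, supernatant over PEEK alone, come from edgeR on the deposited counts. The spread of a gene within a group is the range of its log2 CPM (counts scaled by library size and normalization factor) from the lowest to the highest of the 3 libraries. The 8 pre-osteoblast marker genes were detected in every library, with summed levels of 5131 to 8707 CPM with supernatant and 7185 to 8551 CPM on PEEK alone. Most of each sum came from Col1a2 (334655 to 640352 counts with supernatant and 519519 to 613274 on PEEK alone). Single markers differed between libraries with supernatant, with Alpl at 20.6, 5.95 and 4.91 FPKM and Spp1 at 114.1, 214.9 and 240.4 FPKM. Of 10 listed macrophage marker genes, 7 were in the table (Adgre1, Itgam and Tyrobp were not). These 7 summed to 7.73 to 11.8 CPM with supernatant and 9.71 to 13.1 CPM on PEEK alone. The defining leukocyte gene Ptprc had 0, 0 and 4 counts with supernatant and 0 in each library on PEEK alone. Only the titles of some libraries call them biological replicates. The p-values therefore reflect how much these libraries differ among themselves, which may in part be technical. In bulk RNA, fewer cells making a transcript and less of it per cell cannot be told apart.

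The interferon-stimulated genes did not pass the test between groups, and most of them varied widely between the 3 libraries of PEEK alone. None of the 36 had an edgeR adjusted p under 0.05, with 0.0165% of all tested genes called (3 of 18177, 0.011% higher and 0.0055% lower with supernatant), and the smallest adjusted p among the 36 was 0.305. At an unadjusted p under 0.05, 8.95% of all tested genes passed, and so did 6 of the 36. All 6 were lower with supernatant (16.7%, against 4.3% of all tested genes) and 0 were higher (against 4.65%). Of the 29 that averaged at least 1 FPKM, 3 were lower at this p (10.3%, against 5.29% of tested genes at that level). The median log2 fold change of the 36 was −0.46, against −0.01 over all tested genes, and 31 were below 0 (86.1%, against 51.7%).

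Within groups, the median range of log2 CPM over the 36 genes was 0.45 with supernatant and 1.95 on PEEK alone, while over all tested genes it was 0.39 with supernatant and 0.31 on PEEK alone. Between the 2 libraries left on PEEK alone, the median range was 0.47 without replicate 1, 1.47 without replicate 2 and 1.95 without replicate 3, so most of the spread lay between replicate 1 and the other two. The range was the wider one on PEEK alone in 34 of the 36 (94.4%, against 41% of all tested genes), the exceptions being Oasl1 and Cxcl9. For 19 of the 36 (52.8%) the range on PEEK alone was above 1.92, a value that 5% of all tested genes exceed. The biological coefficient of variation that edgeR estimated for each gene was above that of genes at the same level for 35 of the 36 (97.2%, against 27.8% of all tested genes), by a median ratio of 2.14 (0.871 over all tested genes).

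**Figure D2:**
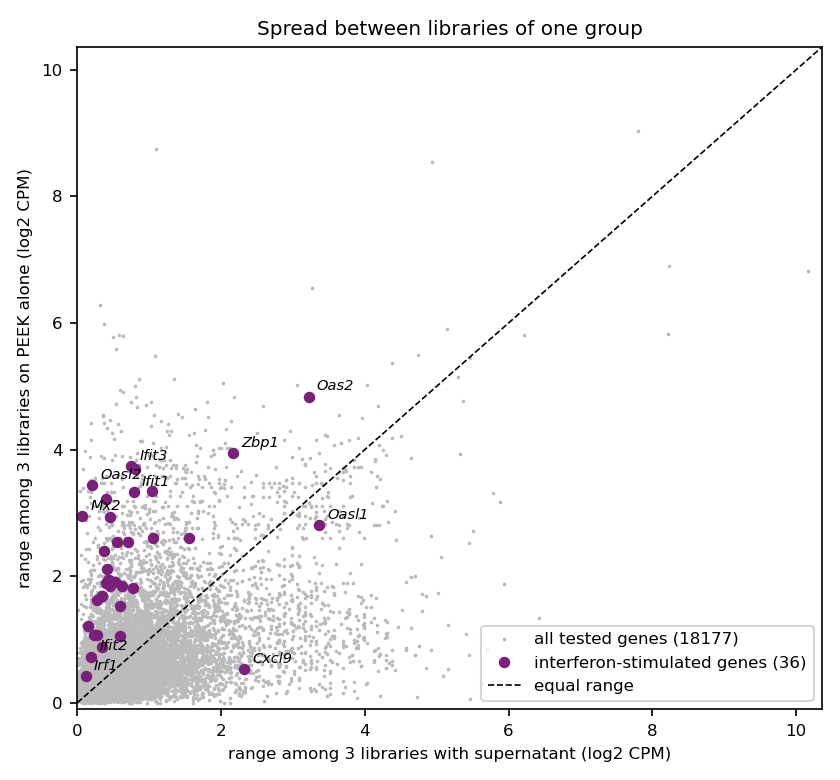
Range of log2 CPM between the 3 libraries with supernatant (horizontal axis) and between the 3 libraries on PEEK alone (vertical axis), for all 18177 tested genes (grey) and the 36 interferon-stimulated genes (purple). The dashed line marks equal ranges, and 34 of the 36 lie above it.

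The 3 libraries on PEEK alone kept the same order in nearly every gene of the set. Replicate 1 was lowest, replicate 3 in the middle and replicate 2 highest in 33 of the 36 (91.7%, against 18.1% of all tested genes), the exceptions being Oas2, Oasl1 and Cxcl9. Replicate 2 of PEEK alone was the highest of all 6 libraries in 33 genes (91.7%, against 14.8%), and replicate 1 of PEEK alone the lowest of all 6 in 27 (75%, against 14.2%). The 3 libraries with supernatant all lay between these extremes in 27 genes (75%, against 13.1%). Measured from each gene's mean log2 CPM on PEEK alone, the median deviation of the 36 was −0.49, −0.15 and −0.13 with supernatant, and −1.14, 0.84 and 0.29 on PEEK alone. By this median, replicate 1 was the lowest library in each group. Of the 29 genes that averaged at least 1 FPKM, all 29 had the order 1, 3, 2 on PEEK alone and a wider range there, so these descriptions do not rest on the scarce transcripts. The genes share their libraries and are not independent of each other.

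**Figure D3:**
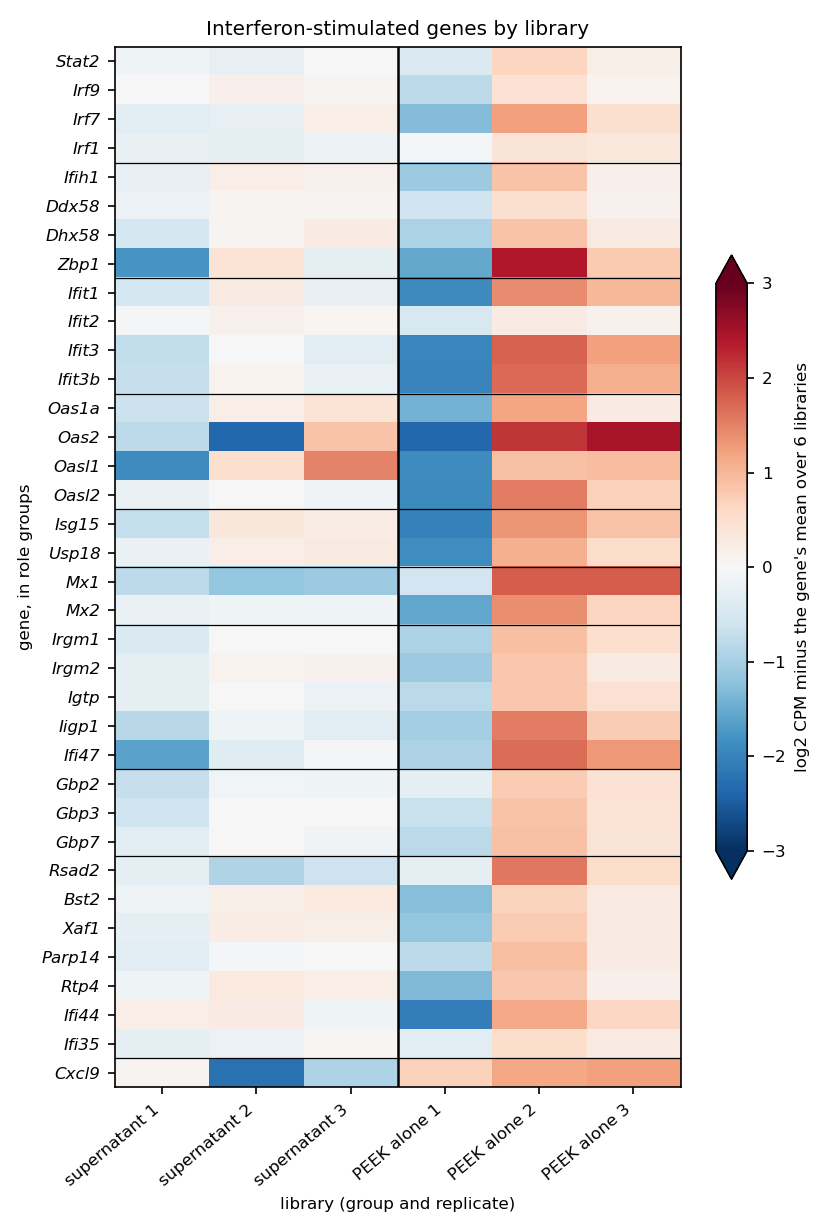
log2 CPM of each interferon-stimulated gene (rows, by role) minus its mean over the 6 libraries (columns), from blue (lower) to red (higher). The column of PEEK alone replicate 1 is mostly blue and that of replicate 2 mostly red, with median deviations from the PEEK alone mean of −1.14 and 0.84, and the 3 columns with supernatant are paler.

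Among the signal transducers and transcription factors, Irf1, which is induced within hours by interferons and other cytokines, had the highest mean level. Irf1 was at 17.2, 16.1 and 17.6 FPKM with supernatant, against 19.2, 25.4 and 24.1 FPKM on PEEK alone. The 3 libraries with supernatant lay close together and below all 3 libraries on PEEK alone, with a log2 fold change of −0.45 (SE 0.11, edgeR adjusted p = 0.308). Irf1 had the narrowest range of the 36 on PEEK alone, 0.43. Irf7, the amplifier of type I interferon transcription, was at 3.44, 3.55 and 4.90 FPKM with supernatant and at 1.74, 10 and 5.89 FPKM on PEEK alone. Its libraries with supernatant all lay between replicates 1 and 3 of PEEK alone, where the highest library was 5.75-fold above the lowest, and the log2 fold change was −0.59 (SE 0.50, edgeR adjusted p = 0.785). Stat2 and Irf9 belong to the ISRE-binding complex, and both overlapped between groups. Stat2 spanned 10.2 to 12.1 FPKM with supernatant and 9.09 to 18.8 FPKM on PEEK alone. Irf9 spanned 9.96 to 10.7 FPKM with supernatant and 5.61 to 12.9 FPKM on PEEK alone.

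The sensors of foreign nucleic acids had a median log2 fold change of −0.20, and all 4 overlapped between groups. Ddx58, which encodes the RNA sensor RIG-I, was the most abundant, at 19.8, 23.1 and 23.3 FPKM with supernatant and 14.5, 30.1 and 23.6 FPKM on PEEK alone. Its means were nearly equal, 22.1 ± 1.94 FPKM with supernatant and 22.7 ± 7.84 FPKM on PEEK alone (SD, 3 libraries each). Zbp1, a sensor of Z-form nucleic acids that can trigger necroptosis, was scarce, with 18, 82 and 54 counts with supernatant and 21, 371 and 114 counts on PEEK alone. Replicate 1 was the lowest library of Zbp1 in both groups, as it was by the median of the 36. The spread of Zbp1 was also wide with supernatant (5.08-fold, against 16.7-fold on PEEK alone). Its log2 fold change was −1.64 (SE 0.89, edgeR adjusted p = 0.638). Ifih1 (the RNA sensor MDA5) ranged over 1.42 to 1.85 FPKM with supernatant and 0.765 to 2.92 FPKM on PEEK alone. Dhx58 (LGP2, which modulates RIG-I and MDA5) ranged over 4.48 to 7.45 FPKM with supernatant and 3.26 to 11.3 FPKM on PEEK alone.

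The IFIT family, which binds foreign RNA and blocks its translation, lies in a cluster on chromosome 19, where the deposited coordinates of its 4 genes run from 34528094 to 34627409 (the build is not named). Ifit3 had the largest spread of the family and the highest mean over all 6 libraries, while with supernatant Ifit2 averaged more (23.4 ± 1.16 FPKM, against 17.2 ± 4.12 FPKM for Ifit3; SD, 3 libraries each). Ifit3 was at 13.1, 21.3 and 17.3 FPKM with supernatant, against 5.53, 72.7 and 50.2 FPKM on PEEK alone. Replicate 1 of PEEK alone was below, and replicates 2 and 3 above, all libraries with supernatant, so that the group that was tighter lay inside the other (1.63-fold from lowest to highest with supernatant, 13.1-fold on PEEK alone). Its log2 fold change was −1.33 (SE 0.70, edgeR adjusted p = 0.630). Counts of 766 in replicate 1 and 10823 in replicate 2 of PEEK alone place this span far beyond counting error.

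Ifit1 repeated that layout at 9.36, 15.6 and 11.1 FPKM with supernatant and 3.52, 34.8 and 25.9 FPKM on PEEK alone (log2 fold change −0.85, SE 0.64, edgeR adjusted p = 0.749). Ifit3b was at 6.13, 10.3 and 8.37 FPKM with supernatant and 2.46, 31.6 and 20.4 FPKM on PEEK alone. Its transcript is 97.8% identical to that of Ifit3 over 1700 bases, and the sources used here do not say how reads with several matches were counted, which leaves the split between these 2 genes uncertain. Ifit2 varied less than the other 3, at 22.1, 24.4 and 23.5 FPKM with supernatant and 16.2, 26.4 and 24.4 FPKM on PEEK alone. It kept the order of the PEEK alone libraries but spanned only 1.63-fold there, and no ISRE letters were found in its 2 listed promoter windows. Oasl2, Ifi44, Ifi47 and Irf7 had none either, and they spanned 10.7-fold, 9.16-fold, 6.12-fold and 5.75-fold on PEEK alone. Irf1, Cxcl9, Ifi35, Irf9 and Xaf1 also had none and spanned 1.32-fold, 1.63-fold, 1.81-fold, 2.30-fold and 3.71-fold there. Oasl1 had none as well, and no fold was taken for it because of a count of 0. A link between ISRE letters and spread was not tested.

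**Figure D4:**
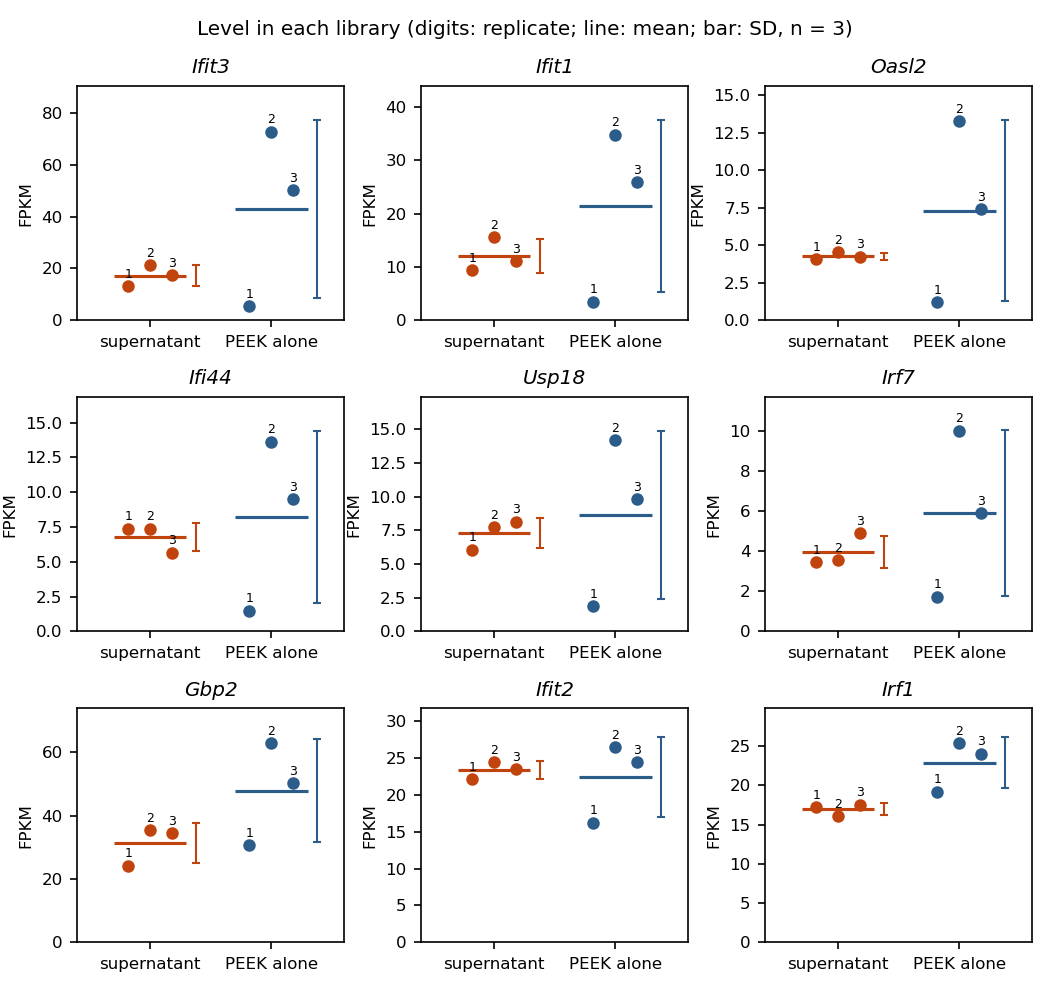
FPKM (vertical axes, linear from 0) of 9 interferon-stimulated genes in each library with supernatant (orange, left) and on PEEK alone (blue, right), with replicate numbers, the group mean as a line and the SD of 3 libraries as a bar. In Ifit3 the libraries with supernatant were at 13.1 to 21.3 FPKM and those on PEEK alone at 5.53 to 72.7 FPKM, while in Irf1 the groups did not overlap.

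The enzymatically active members of the OAS family make short adenylate chains that activate RNase L, an enzyme that degrades RNA in infected cells. Oasl2 was the most abundant, at 4.07, 4.53 and 4.26 FPKM with supernatant and 1.24, 13.3 and 7.39 FPKM on PEEK alone. Its 3 libraries with supernatant differed by 1.11-fold, while those on PEEK alone differed by 10.7-fold and lay on both sides of them (log2 fold change −0.79, SE 0.63, edgeR adjusted p = 0.763). Oas1a, whose transcript is 97.5% identical to Oas1g over 1860 bases and is uncertain for that reason, was at 0.391 to 0.810 FPKM with supernatant and 0.218 to 1.38 FPKM on PEEK alone. Oas2 had 4, 0 and 17 counts with supernatant and 0, 45 and 55 counts on PEEK alone, with the widest range of the 36 on PEEK alone. Oasl1, known in mice to limit translation of Irf7, had 0, 8 and 19 counts with supernatant and 0, 12 and 12 counts on PEEK alone. A count of 0 in these libraries allows up to 0.0405 CPM in replicate 2 with supernatant and 0.0387 CPM in replicate 1 of PEEK alone (3 counts, counting error only), so neither Oas2 nor Oasl1 can be ordered reliably in the low libraries.

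Isg15, a ubiquitin-like protein that is attached to other proteins during the response, was at 0.634, 1.31 and 1.22 FPKM with supernatant and 0.218, 2.65 and 1.903 FPKM on PEEK alone. Its highest library on PEEK alone was 12.1-fold above its lowest, against 2.07-fold with supernatant, and the groups overlapped (log2 fold change −0.60, SE 0.71, edgeR adjusted p = 0.852). Usp18, the protease that removes Isg15 and dampens signalling at the type I receptor, was at 6.07, 7.75 and 8.14 FPKM with supernatant and 1.88, 14.2 and 9.81 FPKM on PEEK alone. The means of Usp18, 7.32 ± 1.10 FPKM with supernatant and 8.63 ± 6.25 FPKM on PEEK alone (SD, 3 libraries each), differed by less than the spread on PEEK alone (log2 fold change −0.25 with an SE of 0.56, edgeR adjusted p = 0.927).

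The Mx genes encode dynamin-like GTPases that trap viral components. Mx2 was at 3.30, 3.35 and 3.37 FPKM with supernatant, against 1.27, 9.72 and 5.71 FPKM on PEEK alone. Its 3 libraries with supernatant were almost equal (1.02-fold from lowest to highest), with replicate 1 of PEEK alone below them and replicates 2 and 3 above (7.68-fold), and the log2 fold change was −0.76 (SE 0.56, edgeR adjusted p = 0.743). Mx1 had 20, 14 and 16 counts with supernatant and 23, 137 and 131 counts on PEEK alone. All libraries with supernatant lay below all of PEEK alone after scaling, though replicate 1 of PEEK alone was close to them, and the log2 fold change was −2.50 (SE 0.63, edgeR adjusted p = 0.305). Mx1 and Mx2 transcripts are 94.8% identical over 920 bases, and Mx1 had far fewer counts than Mx2 (364 to 2997 counts of Mx2 on PEEK alone), so reads of Mx2 placed on Mx1 could not be separated.

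The IRG GTPases act on vacuoles that hold intracellular pathogens. All 5 had log2 fold changes below 0, with a median of −0.47. Irgm1, a regulator of the family and of autophagy, was at 8.25, 10.9 and 10.8 FPKM with supernatant and 5.66, 20.1 and 15.2 FPKM on PEEK alone, again with the libraries with supernatant between the extremes (log2 fold change −0.47, SE 0.38, edgeR adjusted p = 0.769). Ifi47 was at 0.302, 0.704 and 0.884 FPKM with supernatant, against 0.481, 2.94 and 2.25 FPKM on PEEK alone. Replicate 1 of Ifi47 was the lowest library in each group, and the groups overlapped through replicate 1 of PEEK alone, which lay below replicates 2 and 3 with supernatant (log2 fold change −1.59 with an SE of 0.63, edgeR adjusted p = 0.510). Igtp, a regulator like Irgm1 whose promoter is printed with both motifs, ranged over 6.86 to 8.02 FPKM with supernatant and 4.72 to 14.4 FPKM on PEEK alone. Irgm2, the third regulator, ranged over 2.54 to 3.27 FPKM with supernatant and 1.41 to 5.13 FPKM on PEEK alone. Iigp1, an effector of the family, ranged over 0.941 to 1.48 FPKM with supernatant and 0.818 to 4.74 FPKM on PEEK alone.

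The GBP GTPases, which coat pathogen-containing vacuoles and bacteria, included the most abundant gene of the set. Gbp2 was at 24.2, 35.4 and 34.6 FPKM with supernatant, against 30.8, 62.8 and 50.2 FPKM on PEEK alone. Replicate 1 was the lowest library in each group, and replicate 1 of PEEK alone lay among the libraries with supernatant (log2 fold change −0.62 with an SE of 0.26, edgeR adjusted p = 0.531). Gbp7, with the widest range of the 3 on PEEK alone, was at 3.80, 4.66 and 4.33 FPKM with supernatant and 2.68, 8.54 and 6.05 FPKM on PEEK alone (log2 fold change −0.45, SE 0.35, edgeR adjusted p = 0.754). Part of its transcript is identical to a pseudogene over 637 bases, though that pseudogene had no more than 6 counts in any library. Gbp3 ranged over 19.5 to 28.8 FPKM with supernatant and 18.2 to 51.9 FPKM on PEEK alone.

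Of the other effectors, Rsad2 (viperin, an enzyme that makes a chain-terminating nucleotide) did not overlap between groups. It had 60, 36 and 48 counts with supernatant and 60, 234 and 108 counts on PEEK alone, with replicate 1 with supernatant only just below replicate 1 of PEEK alone after scaling, and a log2 fold change of −1.44 (SE 0.47, edgeR adjusted p = 0.440). Xaf1, which counters the apoptosis inhibitor XIAP, was the most abundant, at 21.1, 29.2 and 28.4 FPKM with supernatant and 11.4, 42.1 and 30.1 FPKM on PEEK alone. The Xaf1 means were close, 26.2 ± 4.47 FPKM with supernatant and 27.9 ± 15.5 FPKM on PEEK alone (SD, 3 libraries each; edgeR adjusted p = 0.961). Ifi44 was at 7.39, 7.37 and 5.65 FPKM with supernatant and 1.49, 13.6 and 9.52 FPKM on PEEK alone, a 9.16-fold span on PEEK alone against 1.31-fold with supernatant (log2 fold change −0.29 with an SE of 0.60, edgeR adjusted p = 0.921).

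Bst2 (tetherin, which holds budding virions at the cell surface) and Rtp4 had log2 fold changes of 0.02 each. Bst2 ranged over 14.8 to 19.7 FPKM with supernatant and 6.61 to 25.2 FPKM on PEEK alone. Rtp4, a chaperone of membrane receptors, ranged over 13.3 to 17.1 FPKM with supernatant and 5.64 to 24.2 FPKM on PEEK alone, so in both genes the libraries with supernatant lay inside the span of PEEK alone. Parp14, an ADP-ribosyltransferase, ranged over 3.50 to 4.34 FPKM with supernatant and 2.52 to 8.05 FPKM on PEEK alone, and Ifi35 over 16.5 to 20.5 FPKM with supernatant and 15.7 to 28.3 FPKM on PEEK alone. Rtp4 overlaps Masp1 on the opposite strand in the reference annotation (16084 to 24836 counts of Masp1 per library), Irf7 overlaps Phrf1 likewise, and Irf9 overlaps Rnf31 on the same strand. The sources used here do not say whether the counting used strand, and values of these 3 genes are uncertain. The chemokine gene Cxcl9, a target of interferon gamma that attracts T cells, was near the detection limit, with 8, 0 and 3 counts with supernatant and 13, 20 and 20 counts on PEEK alone. Its groups did not overlap, and the log2 fold change was −2.22 (SE 0.92, edgeR adjusted p = 0.533).

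Groups did not overlap in 4 of the 36 genes, all lower with supernatant (Irf1, Mx1, Rsad2 and Cxcl9). That is 11.1%, against 7.36% of all tested genes, a share near the background, and 0 were higher with supernatant, against 7.83%. Only Irf1 among the 4 was above 1 FPKM. DESeq2 called 2 of the 36 lower with supernatant (0.608% of its tested genes were called lower): Irf1 with a log2 fold change of −0.44 (adjusted p = 0.0471) and Mx1 with −2.50 (adjusted p = 0.0151).

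The size of the difference depended on which libraries on PEEK alone were in it. The median stayed below 0 with each library left out, but was only −0.04 without replicate 2 of PEEK alone. Without replicate 1 of PEEK alone, the lowest library for most of the genes, all 36 log2 fold changes were below 0, with a median of −0.79 (0.00 over all tested genes). Groups then did not overlap, lower with supernatant, in 29 of the 36 (80.6%, against 15.2% of all tested genes). At an unadjusted p under 0.05, 27 were lower (75%, against 5.22%), 0 were called after adjustment, and the smallest edgeR adjusted p was 0.0683. Without replicate 2 of PEEK alone, the highest library, the median was −0.04 (−0.00 over all tested genes), with 21 genes below 0 and 15 above. Groups then did not overlap, lower with supernatant, in 4 of the 36 (11.1%, against 10.7%), 2 were lower at an unadjusted p under 0.05 (5.56%, against 2.23%), and 0 were called (smallest edgeR adjusted p = 0.732). The median was −0.41 when replicate 3 of PEEK alone was left out. Both libraries are extremes of the same genes, so each of these values is a description of the libraries left and not separate evidence of a direction.

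**Figure D5:**
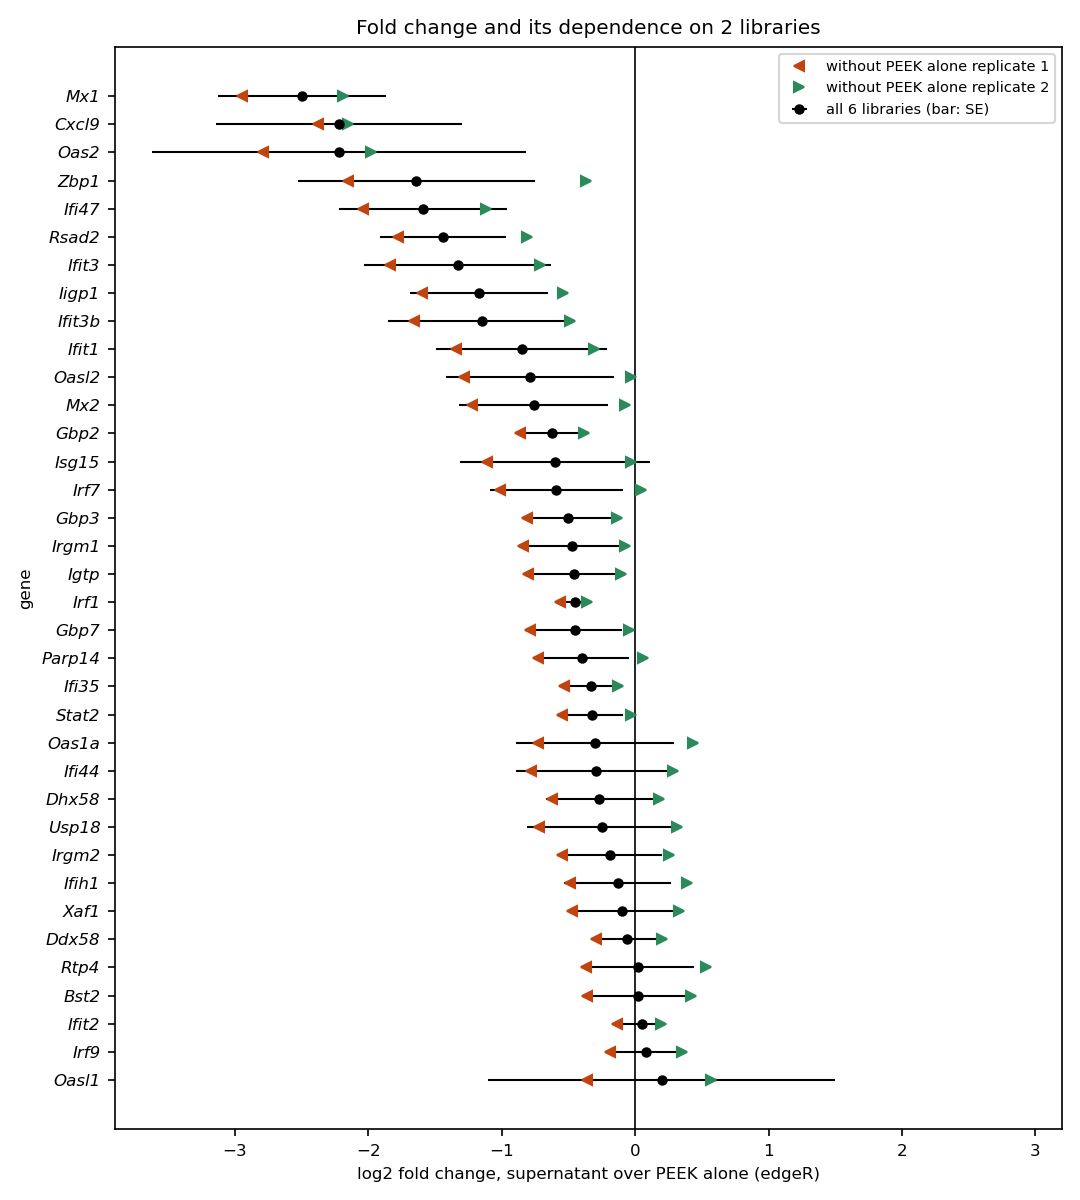
log2 fold change, supernatant over PEEK alone, of each interferon-stimulated gene with all 6 libraries (black, bar for the SE), without PEEK alone replicate 1 (orange) and without PEEK alone replicate 2 (green). The medians were −0.46 with all libraries, −0.79 without replicate 1 and −0.04 without replicate 2.

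Upstream of these genes, the interferon genes themselves were almost undetected. Ifnb1, the type I interferon that non-immune cells make first, had 5, 2 and 2 counts with supernatant and 2, 2 and 4 counts on PEEK alone, and Ifne had 2, 0 and 0 counts with supernatant and 0, 3 and 2 counts on PEEK alone. These were the 2 ligands of 9 listed that were found in the table, and neither passed the low-count filter. Of the receptors and kinases, 0 of 11 tested had an unadjusted p under 0.05. Their median range of log2 CPM was 0.26 with supernatant and 0.21 on PEEK alone. Ifnar1 was at 18.3, 17.8 and 18.2 FPKM with supernatant and 18.1, 17.8 and 17.2 FPKM on PEEK alone. Ifnar2 ranged over 11.5 to 12.9 FPKM with supernatant and 11.4 to 13.5 FPKM on PEEK alone. Ifngr2 ranged over 12.3 to 15.8 FPKM with supernatant and 15.2 to 16.7 FPKM on PEEK alone, and Jak1 over 27.5 to 31.7 FPKM with supernatant and 30.0 to 31.9 FPKM on PEEK alone.

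Of the 11 receptors and kinases, 10 had log2 fold changes below 0 (90.9%, against 51.7% of all tested genes), with a median of −0.11. For Ifngr1 and Tyk2 the groups did not overlap, lower with supernatant (18.2% of the 11, against 7.36%). Ifngr1 was at 14.0 to 15.0 FPKM with supernatant and 15.4 to 16.1 FPKM on PEEK alone (edgeR adjusted p = 0.685), and Tyk2 at 6.42 to 8.38 FPKM with supernatant and 8.60 to 8.92 FPKM on PEEK alone (edgeR adjusted p = 0.566). Irf3, which starts interferon transcription without being induced itself, was at 7.79 to 10.02 FPKM with supernatant and 8.55 to 9.02 FPKM on PEEK alone, and Socs1, a feedback inhibitor, at 1.24 to 2.04 FPKM with supernatant and 0.600 to 1.83 FPKM on PEEK alone.

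Of 13 tested sensing adaptors and kinases, 1 was higher and 0 were lower at an unadjusted p under 0.05, against 4.65% and 4.3% of all tested genes, a count near the background. The gene was Cgas, the DNA sensor that makes cyclic GMP-AMP, at 6.35, 7.12 and 6.95 FPKM with supernatant and 4.93, 5.12 and 4.05 FPKM on PEEK alone. Every library with supernatant was above every library on PEEK alone (log2 fold change 0.52, SE 0.12, edgeR adjusted p = 0.266, DESeq2 adjusted p = 0.0156). Among 11 tested negative regulators, 2 were higher and 1 lower at an unadjusted p under 0.05, against the same 4.65% and 4.3%. Irf2bp1, a corepressor that binds Irf2, was at 11.3, 11.6 and 11.8 FPKM with supernatant and 10.2, 9.39 and 7.90 FPKM on PEEK alone (edgeR adjusted p = 0.453). Ptpn11, the phosphatase SHP2, was at 58.7, 58.3 and 59.8 FPKM with supernatant and 47.8, 51.1 and 53.2 FPKM on PEEK alone (edgeR adjusted p = 0.506). In both, every library with supernatant was above every library on PEEK alone. The lower gene was Trex1, the exonuclease that degrades cytosolic DNA, at 1.05, 1.03 and 0.736 FPKM with supernatant and 1.63, 2.90 and 2.64 FPKM on PEEK alone. Its groups did not overlap (log2 fold change −1.35, SE 0.29, edgeR adjusted p = 0.265, DESeq2 adjusted p = 0.00790). Of the sensing adaptors and kinases, Cgas and Ticam1 were higher without overlap and 0 were lower. Of the negative regulators, 2 were higher (Irf2bp1 and Ptpn11) and 2 lower (Trex1 and Irf2) without overlap. The shares over all tested genes were 7.83% higher and 7.36% lower.

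A further 46 interferon-induced genes outside the set, of which 40 were tested, were also spread most on PEEK alone. They share their libraries with the set and were listed with earlier results of these data known, so they are not separate evidence. The range on PEEK alone was the wider in 40 of 40 (against 41% of all tested genes), with medians of 0.37 with supernatant and 1.49 on PEEK alone, and the order 1, 3, 2 on PEEK alone held in 38 of 40 (95.0%, against 18.1%). None had an edgeR adjusted p under 0.05, 8 were lower (20.0%, against 4.3% of all tested genes) and 0 higher (against 4.65%) at an unadjusted p under 0.05, and the median log2 fold change was −0.38. Cxcl10, a chemokine gene induced by both interferon types, was at 0.823, 1.24 and 1.00 FPKM with supernatant and 1.37, 3.71 and 2.90 FPKM on PEEK alone, without overlap (log2 fold change −1.38, SE 0.36, edgeR adjusted p = 0.309, DESeq2 adjusted p = 0.00700). The membrane protein gene Ifitm2, which blocks virus entry, was at 118.3, 107.9 and 120.3 FPKM with supernatant and 127.5, 169.6 and 151.7 FPKM on PEEK alone, also without overlap (log2 fold change −0.39, SE 0.11, edgeR adjusted p = 0.375). Cxcl11 had a log2 fold change of −2.11 (SE 0.66, edgeR adjusted p = 0.412) at 0.0407 to 0.124 FPKM with supernatant and 0.0980 to 0.510 FPKM on PEEK alone. Ifi27, an interferon-induced mitochondrial protein gene and the only one of the 40 higher with supernatant without overlap, was at 81.4, 78.6 and 84.9 FPKM with supernatant and 36, 72.2 and 64.0 FPKM on PEEK alone (log2 fold change 0.49, SE 0.22, edgeR adjusted p = 0.576). Apol9a and Apol9b had log2 fold changes of 0.60 and 0.78, with groups that overlapped (edgeR adjusted p = 0.814 and 0.720).

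Beside the order of the PEEK alone libraries, the macrophage markers summed to 9.71, 13.1 and 12.3 CPM there, lowest in replicate 1 and highest in replicate 2 as well, and the share of counts from mitochondrial genes was 3.70%, 4.68% and 4.66%. With supernatant the macrophage markers summed to 7.73, 11.8 and 10.8 CPM and the mitochondrial shares were 3.45%, 4.49% and 3.25%. In both groups most of the marker counts came from Cd14 and Cd68. Cd14 had 434, 624 and 636 counts with supernatant and 563, 708 and 680 on PEEK alone. Cd68 had 95, 202 and 141 counts with supernatant and 151, 274 and 187 on PEEK alone. Library totals on PEEK alone were 76895736, 82803173 and 79242264 counts, in the same order as the genes. The part of these measures in the spread of the interferon-stimulated genes was not tested. Of the 7 macrophage genes, 1, 3 and 1 were at 0 counts with supernatant and 2, 2 and 1 on PEEK alone, where Ptprc was at 0 throughout. Lyz2, a lysozyme gene that macrophages express strongly, had 50, 22 and 32 counts with supernatant and 8, 66 and 53 counts on PEEK alone. Not every marker followed the order of the sum on PEEK alone. Csf1r had 23, 27 and 44 counts with supernatant and 20, 22 and 46 on PEEK alone, highest in replicate 3. Mrc1 had 2, 0 and 8 counts with supernatant and 10, 4 and 1 on PEEK alone, highest in replicate 1. Fcer1g had 7, 0 and 0 counts with supernatant and 0, 0 and 1 on PEEK alone.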

How the data were processed

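Poly(A) RNA was sequenced in 6 libraries, 3 per group; per the labels' protocols they were strand-marked with dUTP and carried molecular identifiers. The deposited table gives raw counts and FPKM per gene and library, per the file headers. The submitters' processing notes name cutadapt 1.9 and HISAT2 2.2.1. The sources used here name no build, annotation or counting tool, nor how strand, identifiers and multiply matching reads were treated, which could move values of overlapping genes and close copies. Replicate numbers come from the library names; the titles call libraries 2 and 3 of each group biological replicates 1 and 2. Chi-square values per gene with supernatant were 102.4 and 111.9 between replicate 1 and replicates 2 and 3, and 34.7 between the latter. On PEEK alone they were 60.3 and 56.3 between replicate 1 and replicates 2 and 3, and 25.4 between the latter. None was therefore taken as a copy, and replicate 1 differed most over all genes in each group.

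Counts were tested with edgeR 4.0.16 in R 4.3.3: TMM, filterByExpr with minimum count 10 and minimum total 15, a quasi-likelihood fit with group alone, and Benjamini-Hochberg adjusted p under 0.05 over 18177 genes. The SE is the size of the log2 fold change over the square root of F, and ranges use log2 CPM with a prior count of 2. Alternatives were DESeq2 1.42.0, limma 3.58.1 on log2(FPKM + 1), other filters, the replicate number as a block and each library left out. An exact permutation test of 3 against 3 cannot go below 0.10. Procedures were tested on simulated data. Close copies were found with BLAST 2.17.0 among GENCODE M21 transcripts (at least 90% identity over 500 bases). The 36 genes and all lists were chosen with earlier results of these data known. Per-library values are given for those of the 36 with an unadjusted p under 0.05 or without overlap and for the most abundant and the most spread gene of each role; from each further list, for up to 3 genes of smallest unadjusted p under 0.05 (Cxcl11 by its range). Ifit1, Ifit2, Ifit3b, Ifi27, Apol9a and Apol9b were added after their values were seen. The values of 1 pathway gene outside the 36 are not reported here.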

Additional observations from a re-analysis of the deposited data

How the results depend on the processing

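No interferon-stimulated gene was called by edgeR under any filter, scaling, block or left-out library tried, or by limma, while DESeq2 called 2 of the 36. Over all genes, 3 were called, against 0 without the low-count filter, 0 with the replicate block, 294 with DESeq2, 0 with limma without a filter, 20 at an adjusted p under 0.10, and 0 to 199 with a library left out. In the pathway lists DESeq2 called 3 of 84 genes with counts, 1 higher and 2 lower, against 0 of 75 with edgeR (an alternative chosen after seeing the data). Of all genes given an adjusted p by DESeq2, 0.81% were called higher and 0.608% lower. Leaving out a library moved the number of genes lower without overlap over 4 to 29 (4 with all libraries), the median range with supernatant over 0.12 to 0.42 (0.45; 0.12 without replicate 1 with supernatant), and that on PEEK alone over 0.47 to 1.95 (1.95; 0.47 without replicate 1).

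Over all tested genes, same-numbered libraries did not deviate together (r = −0.03, −0.012 and 0.019). No label says that the numbers pair libraries, and these correlations cannot settle it, since shared handling could touch few genes. With the replicate block the median log2 fold change of the 36 was −0.29, and 0 were called. The block turned Ifih1 to 0.06, Ddx58 to 0.00, Usp18 to 0.12, Xaf1 to 0.07 and Ifi44 to 0.11. Under limma on log2(FPKM + 1), with or without the filter, these 5 were at 0.00, 0.01, 0.09, 0.08 and 0.10, and with a pseudocount of 0.1 at 0.06, 0.02, 0.17, 0.09 and 0.21, with Irgm2 at 0.00.

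Leaving out a library changed the sign of 15 genes, whose log2 fold changes ran from −0.19 to 0.35 (Irf9), −1.01 to 0.04 (Irf7), −0.49 to 0.39 (Ifih1), −0.29 to 0.20 (Ddx58), −0.62 to 0.18 (Dhx58), −0.14 to 0.19 (Ifit2), −0.73 to 0.43 (Oas1a), −0.87 to 0.79 (Oasl1), −0.72 to 0.31 (Usp18), −0.55 to 0.25 (Irgm2), −0.36 to 0.42 (Bst2), −0.47 to 0.33 (Xaf1), −0.73 to 0.06 (Parp14), −0.37 to 0.53 (Rtp4) and −0.78 to 0.28 (Ifi44). Of all 452 recomputed gene values, 406 kept their direction and side of the threshold. Beyond the values given, the cause was not tested. The 7 genes under 1 FPKM are limited by their counts.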
